A study of Mus musculus with 6 samples.

Results

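NF-κB is a dimer of Rel proteins that is held in the cytoplasm by inhibitors of the IκB family until a receptor signal leads to the destruction of the inhibitor. The 10 genes described here encode the Rel subunits Nfkb1, Nfkb2 and Rela, the subunits Chuk, Ikbkb and Ikbkg of the IκB kinase (IKK), the inhibitor Nfkbia, and the adaptors Traf1, Traf2 and Traf6. They were chosen by name, with earlier results of these data known, and all 10 are among the 12125 genes listed in the normalized counts. TRAF adaptors gather at receptors of the TNF, interleukin-1 and Toll-like families and pass the signal to the IKK complex. IKK then phosphorylates the IκB proteins, or, in the non-canonical route, the product of Nfkb2. In the kidney the pathway is known for driving chemokine and cytokine expression in tubular cells, fibroblasts and leukocytes. The comparison asks whether the transcripts of this pathway differ between kidney cells of Trf1flox/flox and Trf1+/+ mice, and TRF1 is a protein that caps telomeres.

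The 6 libraries came from 3 Trf1+/+ and 3 Trf1flox/flox mice. The study used male and female mice, and the sex behind each library is not given in the sources used here. All mice carried Col1a2-CreERT2, a recombinase under a collagen promoter that acts in cells using that promoter and only after tamoxifen, and the reporter KFP (Katushka fluorescent protein) behind a lox-STOP-lox cassette. All received tamoxifen into the abdominal cavity 3 times a week for 8 weeks from an age of 6 to 8 weeks, so the controls shared the recombinase, the reporter and the drug. Each library held the RNA of 500 kidney cells sorted with antibodies against CD29, an integrin, and KFP, and whether both were required of the sequenced cells is not given in the sources used here. The replicate numbers are names in order of listing and link no mice of the 2 genotypes.

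The listed genes held between 10263382 and 12248797 reads per library. Terf1, the gene of TRF1, was measured at 0.891, 253 and 235 normalized counts in Trf1+/+ replicates 1, 2 and 3 and at 110.0, 7.65 and 12.4 in Trf1flox/flox replicates 1, 2 and 3. With 1 read of Terf1, the library labelled Trf1+/+ replicate 1 lay below every Trf1flox/flox library, which is not the order that the labels give. This library also had the fewest genes above 0, at 8967, and the cause of its low Terf1 value was not tested. Trf1flox/flox replicate 1, with 128 reads of Terf1, lay above the other 2 libraries of its genotype and below Trf1+/+ replicates 2 and 3. Groups were kept as labelled. In the library labelled Trf1+/+ replicate 1, 34.4% of the tested genes were at or below 3 reads, against 2.48% to 20.0% in the other 5. A value of 3 reads is taken here as the floor. Fibroblast markers were low where listed, and most are not listed. A gene that is not listed has no value here. That differs from a value of 0, since C1qb is listed with 0 in all 6 libraries. Col1a2, whose promoter drives the recombinase, had between 0 and 1.78 normalized counts, 9 of the 12 fibroblast markers, Col1a1, Pdgfra and Pdgfrb among them, are not listed, and the 3 listed ones summed to 1.66 to 105 normalized counts in Trf1+/+ and 15.5 to 102 in Trf1flox/flox libraries. All 12 proximal tubule markers and all 8 markers of the loop and distal tubule were listed, and their sums lay between 20556 and 93720 and between 78661 and 126686 in Trf1+/+ libraries. The sums in Trf1flox/flox libraries were 26973 to 124489 and 57096 to 163651. Of the 14 leukocyte markers 6 were listed, with sums of 280 to 1471 and 172 to 2574, while Ptprc and Adgre1 are not listed. Of 9 endothelial markers only Pecam1 was listed, with 0.859 to 12.02 normalized counts over the 6 libraries. The 2 listed of 8 myofibroblast and pericyte markers summed to 0 to 79.8 and 26.2 to 220.0, and Acta2 is not listed. The 5 listed of 6 erythroid markers summed to 238 to 10472 and 121 to 52403, the highest in Trf1flox/flox replicate 3. The label of fibroblasts is therefore not borne out by these markers, and the part of other cell types in the values below was not tested. In pooled cells of this kind, fewer cells expressing a gene and less RNA of it per cell cannot be told apart.

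**Figure D1:**
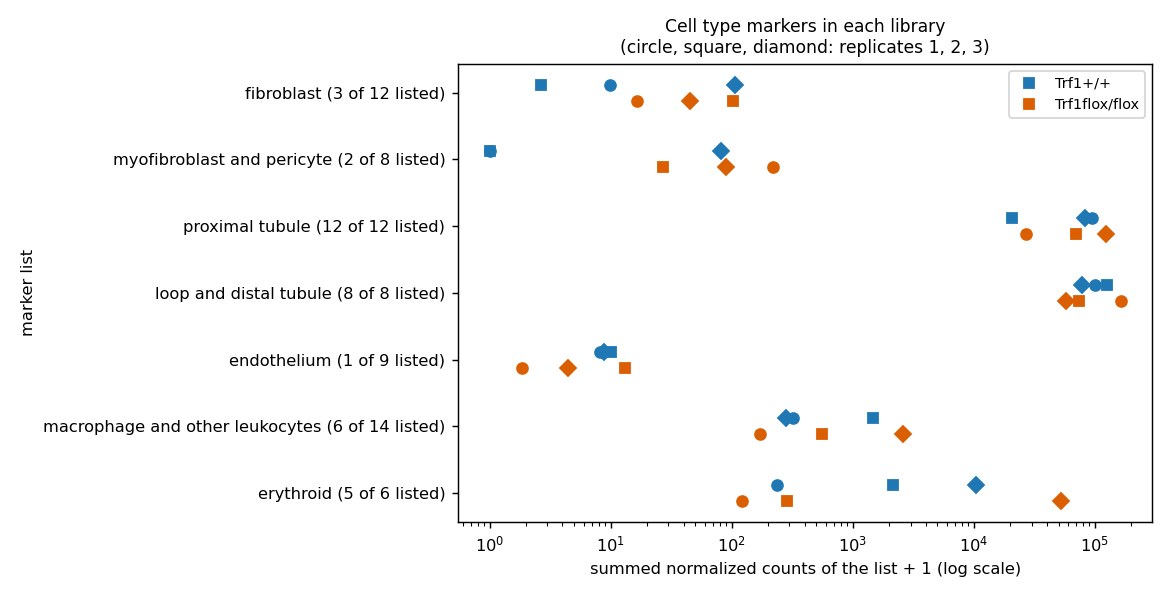
Summed normalized counts of each marker list plus 1 (horizontal log axis) in the 3 Trf1+/+ (blue) and 3 Trf1flox/flox (orange) libraries, with circle, square and diamond for replicates 1, 2 and 3. Both tubule lists lie at 20556 or above in every library, and the 3 listed fibroblast markers sum to no more than 105.

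None of the 10 genes separated the genotypes. In each of them the range of the 3 Trf1flox/flox libraries overlapped the range of the 3 Trf1+/+ libraries (0 of 10 apart). The ranges were apart for 8.58% of all listed genes and for 8.68% of the tested genes. At such shares, 0 of 10 does not set these genes off from genes in general. Differences were tested with limma on log2(normalized count + 1) for the 9966 genes that reached 10 normalized counts in 3 or more libraries, a filter which 9 of the 10 genes passed and Nfkb2 did not. None of the 9 had an unadjusted p under 0.05, against 3.13% of all tested genes (2.10% higher and 1.03% lower in Trf1flox/flox), and no gene of the 9966 had an adjusted p under 0.05. On the same genes edgeR called 0 genes after adjustment. DESeq2 called 58 of the 9407 genes to which it gave an adjusted p (0.617%), none of them one of the 9. The unadjusted p was under 0.05 for 1.97% of genes in edgeR and for 4.27% of the 9601 genes with a p in DESeq2. DESeq2 gave no p for Ikbkb. Of the 9 genes 5 had a positive difference of Trf1flox/flox minus Trf1+/+, and 55.9% of all tested genes did. Under edgeR and DESeq2 6 of the 9 were positive, and 48.3% of all genes, while a common upper quartile gave 5 and 63.9%. Their median log2 difference was 1.54, and 0.73 over all 10 genes, against 0.20 over all tested and 0.23 over all listed genes. Without the library labelled Trf1+/+ replicate 1 the median of the 9 genes was 0.24. These p-values set the difference between the genotypes against the spread between the 3 libraries of a genotype, as each method models it.

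**Figure D2:**
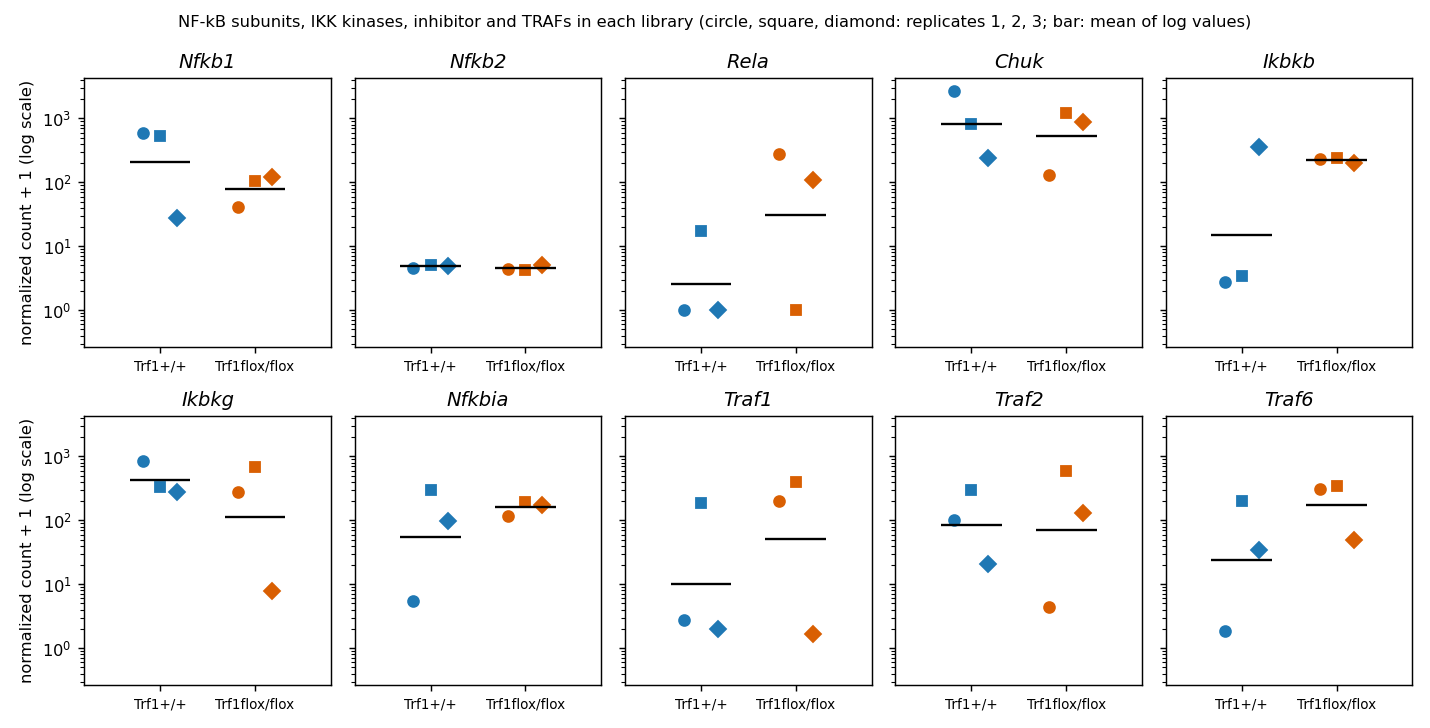
Normalized count plus 1 (vertical log axis) of each of the 10 genes in the 3 Trf1+/+ (blue) and 3 Trf1flox/flox (orange) libraries. Circles, squares and diamonds are replicates 1, 2 and 3, bars are means of the log values, and the 2 genotypes overlap in every panel.

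Nfkb1 encodes p105, the precursor of the p50 subunit (ENSMUSG00000028163, minus strand, chr3:135584655-135691547 on GRCm38). Its normalized counts were 597, 524 and 26.6 in Trf1+/+ replicates 1, 2 and 3 and 39.5, 103 and 121 in Trf1flox/flox replicates 1, 2 and 3. The controls did not share a level, with the library labelled Trf1+/+ replicate 1 and replicate 2 above every Trf1flox/flox library and replicate 3 below them all. The means were 382 ± 310.2 and 87.6 ± 42.6 (SD, n = 3 each). The log2 difference was -1.36 (SE 1.58, 95% interval -4.82 to 2.10, adjusted p = 0.970 from limma). Without Trf1+/+ replicate 3 it was -2.81, with an unadjusted limma p of 0.0492 and an adjusted p of 0.687, and leaving out the library labelled Trf1+/+ replicate 1 gave -0.59. The estimates of edgeR and DESeq2 were -2.05 and -2.10.

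Rela encodes p65, the subunit that carries the activation domain of the common p50 and p65 dimer (ENSMUSG00000024927, plus strand, chr19:5637483-5648130). Its normalized counts were 0, 16.6 and 0 in the Trf1+/+ and 280.1, 0 and 108 in the Trf1flox/flox libraries, from 0, 20 and 0 and from 326, 0 and 157 reads. A count of 0 allows up to 3 reads, a limit that covers counting error only. Trf1flox/flox replicates 1 and 3 were above all controls, and replicate 2 was at 0 together with the library labelled Trf1+/+ replicate 1 and Trf1+/+ replicate 3. The log2 difference was 3.59 (SE 2.36, 95% interval -1.57 to 8.75, adjusted p = 0.970 from limma). Without Trf1flox/flox replicate 2 it was 6.07, with an unadjusted limma p of 0.0319 and an adjusted p of 0.996, and without Trf1flox/flox replicate 1 it was 2.01. The standard deviation of the log2 values of Rela within the genotypes was 3.51, larger than that of 86.3% of tested genes.

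Nfkb2 encodes p100, the precursor of p52 and the end point of the non-canonical route (ENSMUSG00000025225, plus strand, chr19:46304320-46312385). It was at the edge of detection in every library, with 4, 5 and 4 reads in the Trf1+/+ and 4, 3 and 6 reads in the Trf1flox/flox libraries. The normalized counts were 3.56, 4.14 and 3.94 and 3.44, 3.28 and 4.13. The log2 difference without the filter on low values was -0.08 (SE 1.42, 95% interval -3.27 to 3.10, adjusted p = 0.999 from limma), and at this depth no difference was detectable. Of its annotated exonic bases 531 are shared with AC114539.1 and 299 with Psd on the opposite strand, and the libraries do not keep the strand.

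The promoters of Nfkb2 and Nfkbia are shown because they hold matches to the κB consensus, the sequence that NF-κB binds, and each is printed as the 250 bases before an annotated start site from RefSeq (GRCm38.p6), with the matches on either strand in capitals. Nfkb2 lies on the plus strand, and this sequence is chr19:46304487-46304736. Nfkbia lies on the minus strand, and its sequence is chr12:55492648-55492897.
Nfkb2: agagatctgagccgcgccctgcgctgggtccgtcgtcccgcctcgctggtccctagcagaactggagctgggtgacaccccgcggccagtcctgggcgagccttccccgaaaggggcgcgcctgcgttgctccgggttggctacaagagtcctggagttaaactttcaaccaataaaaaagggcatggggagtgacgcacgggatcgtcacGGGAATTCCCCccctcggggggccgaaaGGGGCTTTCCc
Nfkbia: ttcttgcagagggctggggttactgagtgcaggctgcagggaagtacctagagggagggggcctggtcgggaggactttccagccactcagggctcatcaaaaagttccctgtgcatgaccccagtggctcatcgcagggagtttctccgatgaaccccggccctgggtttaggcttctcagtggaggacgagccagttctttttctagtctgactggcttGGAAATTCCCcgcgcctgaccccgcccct

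Promoter windows of 300 bases, from 250 before to 50 after each start site, were at hand for 8 of the 10 genes, all but Nfkb1 and Ikbkb. The κB consensus was found on either strand in 2 of the 8, Nfkb2 and Nfkbia, not in Rela, Chuk, Ikbkg, Traf1, Traf2 or Traf6, and in 9.55% of 27025 genes with such windows. It was also found in 11.6% of the 9136 listed genes with such windows. The matches of Nfkb2 include 1 lying 225 bases before a later start site, shown here with 10 bases on each side (chr19:46305695-46305724, plus strand).
Nfkb2 later start: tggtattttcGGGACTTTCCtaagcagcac

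The transcripts of the 2 genes differed in level except in the library labelled Trf1+/+ replicate 1. Nfkb2 was at 3 to 6 reads in each library. Nfkbia had 5 reads in the library labelled Trf1+/+ replicate 1 and 99 to 363 reads elsewhere. These reads are not divided by gene length. Over all tested genes with such windows, the median log2 difference was 0.24 for the 887 genes with the consensus and 0.21 for the 6818 without it. The ranges of the genotypes were apart for 8.79% and 8.68% of them.

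The 3 genes of the IKK complex did not share a pattern over the libraries. Chuk encodes IKKα, the catalytic subunit of the non-canonical route and a partner of IKKβ in the canonical one (ENSMUSG00000025199, minus strand, chr19:44073335-44107480). Its normalized counts were 2716, 808 and 239 in the Trf1+/+ and 131, 1229 and 872 in the Trf1flox/flox libraries. The highest value belonged to the library labelled Trf1+/+ replicate 1 and the lowest to Trf1flox/flox replicate 1. Its log2 difference was -0.63 (SE 1.02, 95% interval -2.86 to 1.60, adjusted p = 0.983 from limma). Leaving out the library labelled Trf1+/+ replicate 1 gave 0.24, and the estimate was 0.36 without Trf1flox/flox replicate 1.

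Ikbkb encodes IKKβ, the main kinase of IκBα (ENSMUSG00000031537, minus strand, chr8:22659212-22706589). It had 1.78, 2.49 and 356 normalized counts in the Trf1+/+ and 229, 237 and 198 in the Trf1flox/flox libraries. The 3 Trf1flox/flox libraries lay close to each other, at 221 ± 20.9 (SD, n = 3), while the controls held 2, 3 and 361 reads and included the highest value of all. On the log2 scale the difference was 3.87 (SE 2.32, 95% interval -1.20 to 8.95, adjusted p = 0.970 from limma). It was 6.15 without Trf1+/+ replicate 3, with an unadjusted limma p of 0.0212 and an adjusted p of 0.687, and 2.65 without the library labelled Trf1+/+ replicate 1. With edgeR on the recovered reads it was 0.85 and with DESeq2 0.88.

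Ikbkg encodes NEMO, the regulatory subunit (ENSMUSG00000004221, plus strand, chrX:74393290-74453854). Its normalized counts were 853, 328 and 274 in the Trf1+/+ and 276, 683 and 6.89 in the Trf1flox/flox libraries. Trf1flox/flox replicate 3, with 10 reads, stood below the other 5 libraries. The log2 difference was -1.90 (SE 1.53, 95% interval -5.24 to 1.44, adjusted p = 0.970 from limma), and it was 0.03 without that library. With edgeR it was -0.60 and with DESeq2 -0.57. Of its exonic bases 418 (5.15%) are shared with the opposite strand gene G6pdx, which is also listed.

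Nfkbia encodes IκBα, the inhibitor that is degraded and then made again when NF-κB is active (ENSMUSG00000021025, minus strand, chr12:55489410-55492647). It had 4.45, 301 and 97.6 normalized counts in the Trf1+/+ and 115, 196 and 175 in the Trf1flox/flox libraries. Trf1+/+ replicate 2 was the highest of the 6, and the library labelled Trf1+/+ replicate 1, with 5 reads, the lowest. The means were 134 ± 152 and 162 ± 41.8 (SD, n = 3 each). The log2 difference was 1.54 (SE 1.85, 95% interval -2.50 to 5.59, adjusted p = 0.970 from limma). Leaving out the library labelled Trf1+/+ replicate 1 gave -0.12, and the estimates were 0.20 and 0.27 with edgeR and DESeq2.

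Among the adaptors, Traf1, which binds TRAF2 and is itself a target of NF-κB, was the most uneven (ENSMUSG00000026875, minus strand, chr2:34941750-34961772). Its normalized counts were 1.78, 185 and 0.985 in the Trf1+/+ and 202, 401 and 0.689 in the Trf1flox/flox libraries. Each genotype thus held libraries with over 200 reads and libraries with 1 or 2 reads. For Traf1 the log2 difference was 2.36 (SE 2.86, 95% interval -3.87 to 8.59, adjusted p = 0.970 from limma), and it ranged from 0.88 without Trf1flox/flox replicate 2 to 4.82 without Trf1flox/flox replicate 3. With edgeR it was 1.52 and with DESeq2 1.68. The standard deviation of its log2 values within the genotypes was 3.99, above that of 94.7% of tested genes.

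Traf2, the adaptor of TNF receptors (ENSMUSG00000026942, minus strand, chr2:25517982-25546940), had 101, 296 and 19.7 normalized counts in the Trf1+/+ and 3.44, 589 and 130.2 in the Trf1flox/flox libraries. Replicates 2 of both genotypes were the highest, and Trf1flox/flox replicate 1, with 4 reads, was the lowest. Its log2 difference was -0.29 (SE 2.18, 95% interval -5.06 to 4.48, adjusted p = 0.994 from limma). Its sign turned with edgeR (0.71) and DESeq2 (0.80), and when Trf1+/+ replicate 2 (0.61) or Trf1flox/flox replicate 1 (1.70) was left out.

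Traf6, the ubiquitin ligase of interleukin-1 and Toll-like receptor signaling (ENSMUSG00000027164, plus strand, chr2:101678429-101701669), had 0.891, 201 and 33.5 normalized counts in the Trf1+/+ and 303, 343 and 47.5 in the Trf1flox/flox libraries. Trf1flox/flox replicates 1 and 2 were above all controls, and replicate 3 was below Trf1+/+ replicate 2. Its log2 difference was 2.87 (SE 2.23, 95% interval -2.01 to 7.74, adjusted p = 0.970 from limma). Leaving out the library labelled Trf1+/+ replicate 1, where Traf6 had 1 read, gave 1.04, and the estimate was 4.41 without Trf1+/+ replicate 2. With edgeR it was 1.43 and with DESeq2 1.55.

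**Figure D3:**
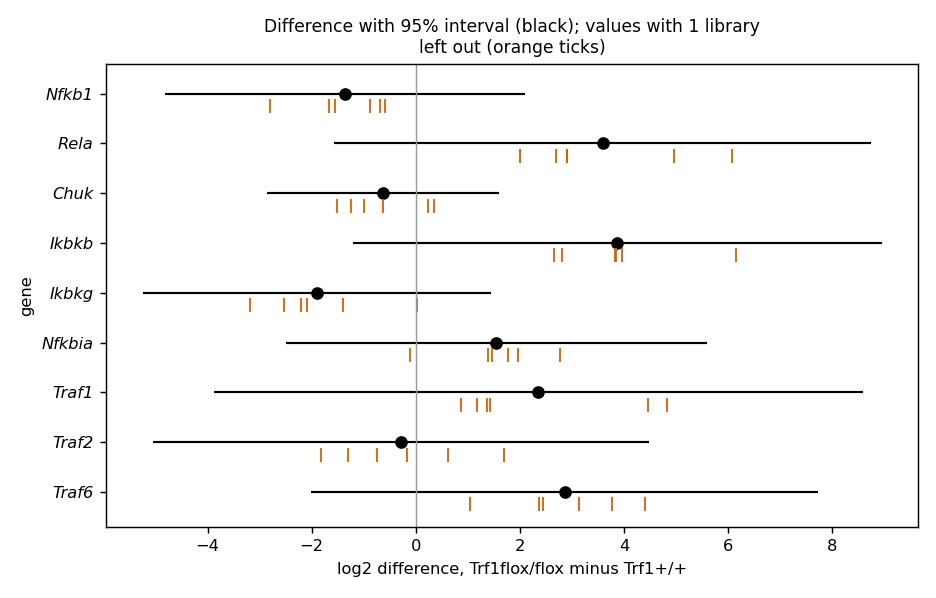
Log2 difference of Trf1flox/flox minus Trf1+/+ (horizontal axis) for the 9 tested genes. Black points and lines are limma's estimates with 95% intervals, which all include 0, and orange ticks are the estimates with each library left out in turn, which lie on both sides of 0 for Chuk, Ikbkg, Nfkbia and Traf2.

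The libraries differed in which of the 10 genes they held. In the library labelled Trf1+/+ replicate 1, Nfkb1, Chuk and Ikbkg had their highest value of the 6 libraries, and 4 genes, Rela, Ikbkb, Traf1 and Traf6, were at or below 3 reads. Trf1+/+ replicate 2 was above the gene's own median over the 6 libraries for 8 of the 10 genes, and Trf1+/+ replicate 3 for 2. In the Trf1flox/flox libraries the numbers were 4, 7 and 6 for replicates 1, 2 and 3. At or below 3 reads were Ikbkb in Trf1+/+ replicate 2, Rela and Traf1 in Trf1+/+ replicate 3, Rela and Nfkb2 in Trf1flox/flox replicate 2, and Traf1 in Trf1flox/flox replicate 3. No gene of the 10 was that low in Trf1flox/flox replicate 1. Chuk and Ikbkb were opposite in 2 of the controls. Chuk was highest and Ikbkb lowest in the library labelled Trf1+/+ replicate 1, and Ikbkb was highest in Trf1+/+ replicate 3, where Chuk was at 239.

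Levels of different genes were compared as normalized counts per kb of annotated exonic sequence. By the median of the 6 libraries Chuk stood first, at 165 normalized counts per kb, followed by Nfkbia at 90.1, Ikbkg at 37.2, Traf2 at 22.6, Traf6 at 15.7, Ikbkb at 11.2, Traf1 at 10.6, Nfkb1 at 9.26, Rela at 2.70 and Nfkb2 at 0.819. The ranges over the 6 libraries overlapped between all neighbours in this order. Divided by the longest coding transcript in place of all exonic bases, Ikbkb stood at 53.7 per kb, in place 3, since its exonic sequence of 19078 bases compares with a transcript of 3977 bases, and Traf6 went to place 8. Chuk, Nfkbia, Rela and Nfkb2 kept their places.

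**Figure D4:**
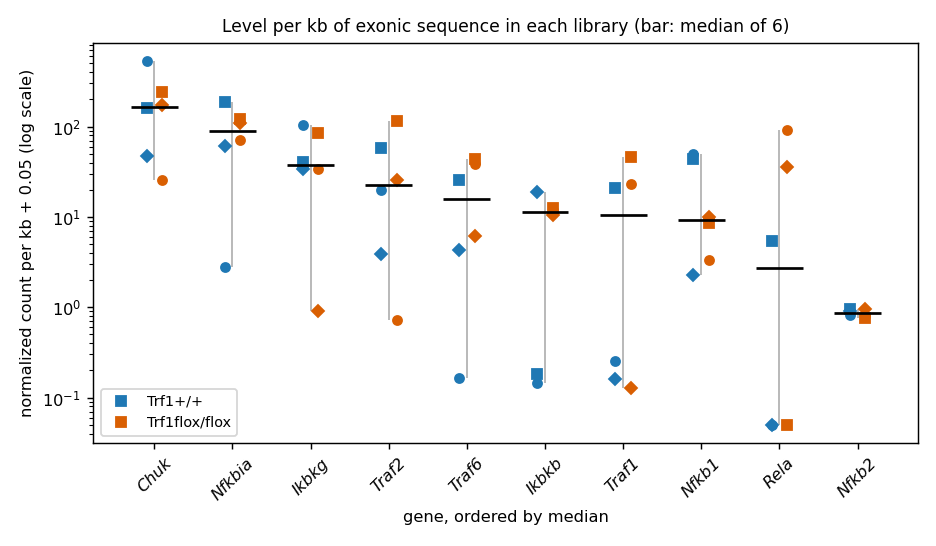
Normalized counts per kb of exonic sequence plus 0.05 (vertical log axis) of the 10 genes, ordered by the median of the 6 libraries (black bars). Blue and orange symbols are the Trf1+/+ and Trf1flox/flox libraries, grey lines are ranges, and medians go from 165 in Chuk to 0.819 in Nfkb2, with overlapping ranges between neighbours.

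The profiles most like those of Rela and Nfkb1 were sought among the 8671 tested genes whose mean reached 50 normalized counts, as the mean absolute difference of centred log2 values over the 6 libraries. For Rela these were Kbtbd7 (0.21), Prickle3 (0.23) and Erap1 (0.40), against a median of 3.25 over the candidates. Kbtbd7 had 0, 10.8 and 0 normalized counts in the Trf1+/+ and 357, 0 and 93.7 in the Trf1flox/flox libraries, the same order of libraries as Rela. For Nfkb1 they were Ing2 (0.38), Lactb (0.39) and Atxn10 (0.49), against a median of 2.16. Lactb had 1210, 1209 and 164 and 110.0, 260.1 and 248 normalized counts. The points are the 6 libraries, which these genes share.

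Of 138 other genes of the pathway, 84 are listed and 69 were tested. The difference was positive in 44 of the 69 and negative in 25, 63.8% positive against 55.9% of all tested genes, and the median log2 difference was 0.47. Without Trf1+/+ replicate 2 the order turned, with 36 positive (52.2%) against 56.0% of all tested genes. Leaving out the library labelled Trf1+/+ replicate 1 gave 39 (56.5%) against 48.9%, and over the 6 libraries left out in turn the number was 36 to 45. With edgeR and with DESeq2 37 were positive (53.6% against 48.3%), and with a common upper quartile 47 (68.1% against 63.9%). None had an adjusted p under 0.05, and 1 (1.45%) had an unadjusted p under 0.05, against 3.13% of all tested genes. The genotypes were apart in 4 (5.80%), against 8.68% of all tested genes, with Trf1flox/flox above in 3 (5.35% of all tested genes were apart in this direction) and below in 1 (3.33%).

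Of the receptors and ligands 10 of 31 are listed. Cd40, Tlr4, Tnf and Il1b are not, and so have no value here. A positive difference was found in 5 of the 7 tested, and the median was 0.63. Tnfrsf1a, the main receptor of TNF, had 265, 306 and 325 normalized counts in the Trf1+/+ and 323, 0 and 55.8 in the Trf1flox/flox libraries. The controls were even here, and 1 Trf1flox/flox library reached their level (log2 difference -3.50, SE 2.14, adjusted p = 0.970 from limma). Tnfsf10, which encodes the death ligand TRAIL, had a log2 difference of 3.33 (SE 2.39), with 7, 1 and 233 reads in the controls. Tnfrsf12a, the receptor of TWEAK, had one of -2.76 (SE 2.42).

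Of the adaptors and upstream kinases 33 of 37 are listed, and 18 of the 27 tested had a positive difference, with a median of 0.61. Tradd, which links the TNF receptor to TRAF2, had 0, 11.6 and 0 normalized counts in the Trf1+/+ and 255, 667 and 65.5 in the Trf1flox/flox libraries. All 3 Trf1flox/flox libraries were above the controls, and the difference was 6.59 (SE 2.32, 95% interval 1.53 to 11.7, unadjusted p = 0.0150 and adjusted p = 0.970 from limma). The genotypes were also apart, with Trf1flox/flox above, for Xiap, an inhibitor of caspases, and for Rbck1, a subunit of the linear ubiquitin ligase. Xiap had 0.891, 412 and 338 and 880, 721 and 485 normalized counts (3.40, SE 1.79). Its lowest value, from 1 read, was in the library labelled Trf1+/+ replicate 1. Rbck1 had 1.78, 19.9 and 16.8 and 92.8, 697 and 59.3 normalized counts (3.97, SE 2.26, adjusted p = 0.970 from limma). In the other direction Irak1, a kinase of interleukin-1 and Toll-like receptor signaling, was apart, named here after its values were seen. Irak1 had 639, 592 and 552 and 217, 351 and 474 normalized counts (-0.84, SE 0.72, adjusted p = 0.970 from limma). Birc3, a ubiquitin ligase bound to TRAF2, did not pass the filter and had 2.67, 58.8 and 36.5 and 7.73, 9.84 and 4.13 normalized counts.

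Of the 8 other Rel and IκB genes 4 are listed and 2 were tested. Rel, Relb and Nfkbie are not listed and have no value here. Nfkbib, which encodes IκBβ, had a log2 difference of -1.08 (SE 1.14), and Bcl3, a nuclear IκB protein, one of 1.40 (SE 2.45). Of 22 genes of inhibition and degradation 20 are listed and 19 were tested, with 13 positive differences and a median of 0.48. Nkiras1 and Nkiras2, small GTPase-like proteins that bind IκB, had 1.78, 334 and 228 and 0, 437 and 20.7 normalized counts in the Trf1+/+ libraries. In the Trf1flox/flox libraries Nkiras1 had 533, 215 and 619, and Nkiras2 had 246, 225 and 221. The differences of 2.80 (SE 1.76) and 3.45 (SE 2.31) did not pass the test, and the lowest value of both was in the library labelled Trf1+/+ replicate 1. Otud7b, a deubiquitinase, had a difference of 2.62 (SE 2.05). Tnfaip3, which encodes the inhibitor A20, had 48 reads in Trf1flox/flox replicate 3 and none in the other 5 libraries.

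Of 40 target genes 17 are listed and 14 were tested, 7 with a positive and 7 with a negative difference and a median of 0.05. Il6, Ccl2, Icam1 and Cxcl1 are not listed and have no value here, while Lcn2 is listed with 0 in every library. C3, a complement component, had 53.4, 1.66 and 0.985 normalized counts in the Trf1+/+ and 58.4, 68.8 and 34.5 in the Trf1flox/flox libraries (95% interval of the log2 difference -1.94 to 7.94). Bcl2l1, which encodes the survival protein BCL-XL, had 888, 834 and 587 and 424, 926 and 161 (-0.93, SE 0.77). Vcam1, an adhesion molecule, had 113, 14.9 and 0.985 and 0.859, 13.1 and 0.689 (-2.12, SE 1.92). All 3 had an adjusted p of 0.970 from limma, and their groups overlapped.

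**Figure D5:**
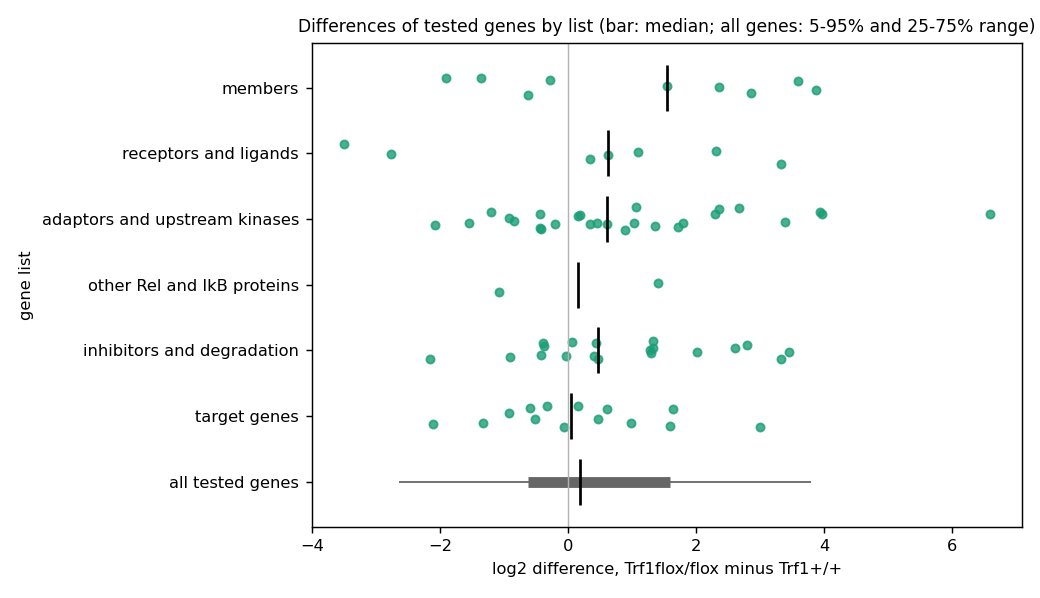
Log2 difference of Trf1flox/flox minus Trf1+/+ (horizontal axis) of the tested genes of each list, with black bars for the medians, and for all 9966 tested genes the 5 to 95% (thin) and 25 to 75% (thick) ranges. Medians go from 0.05 in target genes to 1.54 in the 9 tested genes described above, and Tradd is the point farthest to the right, at 6.59.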

How the data were processed

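The authors sorted kidney cells, made cDNA from oligo(dT) primers by template switching, amplified it without molecular identifiers and sequenced unstranded libraries on an Illumina instrument. They aligned reads with TopHat2 2.0.10, Bowtie 1.0.0 and SAMtools 0.1.19 and counted them with HTSeq 0.6.1 on GENCODE genes. The paper names GRCm38 and the submitters' processing notes name GRCm39. The signal values deposited by the authors are normalized counts, in which each library's reads are divided by a size factor (DESeq2, version not given in the sources used here). All values (100%) were whole multiples of 1 read within 0.01, so reads were recovered. Gene positions and lengths come from GENCODE M21 on GRCm38, and promoters from RefSeq.

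Here log2(normalized count + 1) was fitted with limma 3.58.1 in R 4.3.3 (trended eBayes, Benjamini-Hochberg adjustment over all 9966 tested genes), without covariates. Alternatives were pseudocounts of 0.5 and 5, no filter, a common upper quartile, edgeR 4.0.16 and DESeq2 1.42.0 on the recovered reads, and each library left out. Depth was 10263382 to 12248797 reads, and floors of 3 reads cover counting error only. Groups come from the genotype labels.

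The members and lists were chosen with earlier results of these data known. Named were all 10 members, the 3 tested genes of each pathway list with the smallest unadjusted p, and Tnfaip3, Nfkbie, Birc3, Il6 and Ccl2. For Rela and Nfkb1 the 3 most alike genes were also named.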

Additional observations from a re-analysis of the deposited data

How the results depend on the processing

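With each library left out, genes with an unadjusted limma p under 0.05 numbered 226 to 650 in place of 312, and edgeR gave 196. Adjusted calls stayed at 0 in limma and edgeR, and DESeq2 gave 58. Members with an unadjusted p under 0.05 numbered 0 to 2 (Nfkb1 and Ikbkb without Trf1+/+ replicate 3, where 6.52% of tested genes had such a p, and Rela without Trf1flox/flox replicate 2, where 2.28% did). Members apart, counted so after seeing the data, numbered 0 to 3, the most without Trf1flox/flox replicate 3 (Nfkb2, Traf1 and Traf6, where 17.9% of tested genes were apart). The members' median ran from 0.24 to 2.78 with libraries left out and from 0.71 to 1.76 otherwise. The all-gene median ran from -0.03 to 0.34 and from -0.05 to 0.44, the highest at a common upper quartile. The counts of positive pathway genes under other settings were added after seeing the data. Single members ran, with libraries left out, from -2.81 to -0.59 (Nfkb1), 2.01 to 6.07 (Rela), -1.51 to 0.36 (Chuk), 2.65 to 6.15 (Ikbkb), -3.19 to 0.031 (Ikbkg), -0.12 to 2.78 (Nfkbia), 0.88 to 4.82 (Traf1), -1.82 to 1.70 (Traf2) and 1.04 to 4.41 (Traf6). Traf2 was 0.71 with edgeR and 0.80 with DESeq2, and the cause was not tested. A library left out leaves 2 in its group. Genes near 3 reads, Nfkb2 above all, allow no statement at this depth. No paired analysis was possible because the labels give no replicate numbers that link mice of the 2 genotypes.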
